A study of Mus musculus with 4 samples.

Results

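The accessible regions at 10 genes of the Notch pathway were described in ATAC-seq data from mouse aorta. These genes were the receptors *Notch1*, *Notch2* and *Notch3*, the ligands *Jag1*, *Jag2* and *Dll4*, and the target genes *Hes1*, *Hey1*, *Hey2* and *Heyl*. Every peak in the body of 1 of these genes or within 50 kb of it (GENCODE vM21, mm10) was taken. That gave 116 of the 64360 peaks in 4 peak lists, or 79 of the 42961 regions left after overlapping peaks of all lists were merged.

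In ATAC-seq, the transposase Tn5 cuts and tags DNA where chromatin is open, and open regions are read out as peaks of sequenced fragments. Aortic nuclei came from control (Col3a1+/+) and VEDS (Col3a1G938D/+) mice at P60, and each genotype had 1 library from females and 1 from males, each made from 2 mice. VEDS mice are heterozygous for a glycine substitution in type III collagen and model vascular Ehlers-Danlos syndrome. The nuclei were not separated by cell type, so that fewer cells of a type and less accessibility per cell cannot be told apart. With 2 libraries against 2, the smallest two-sided exact permutation p is 0.333, and the libraries of a genotype also differ in sex. For these reasons no test between genotypes was made, and all values below are descriptions.

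Notch receptors are bound by Jagged and Delta-like ligands on neighboring cells. Cleavage then releases the intracellular domain of the receptor, which enters the nucleus and joins the DNA-binding protein RBPJ and a Mastermind coactivator at target genes such as those of the HES and HEY families. In arteries, NOTCH3 and NOTCH2 act in vascular smooth muscle cells (VSMCs), JAG1 on endothelial cells and VSMCs promotes VSMC differentiation, and DLL4 and NOTCH1 act in arterial endothelium. HES and HEY proteins are repressors that bind E-box-like sequences. Paired RBPJ sites in head-to-head orientation, as in the *Hes1* promoter, can hold a dimer of the Notch complex.

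The 4 lists differed widely in length, and all peaks at the Notch loci came from the long lists. Of 21176 peaks in the control female library, 38 lay at the Notch loci, and of 41444 in the VEDS male library, 78 did. None of the 1236 control male peaks and none of the 504 VEDS female peaks did. The background was low in these short lists as well. Of all protein-coding genes, 7.97% had a control male peak and 5.42% a VEDS female peak in the gene body or within 50 kb, against 73.0% for the control female and 80.2% for the VEDS male list. The median number of fragments at a summit was 14 and 22 in the long lists (control female and VEDS male) and 7 and 6 in the short lists (control male and VEDS female). In the control male list, 69.6% of peaks were mostly repeat-masked sequence, and in the VEDS female list 28.1%, against 3.90% and 5.10% in the long lists. At the VSMC markers *Acta2*, *Myh11*, *Tagln*, *Cnn1*, *Smtn* and *Myocd*, promoter peaks were present for 6 of 6 genes in both long lists and for 0 in both short lists. Promoter peaks stood at 1 of 6 endothelial markers in the control female list and at 5 of 6 in the VEDS male list, at 4 and 3 of 6 fibroblast markers, and at 0 and 1 of 5 immune markers. In adipocyte markers the counts were 0 and 1 of 4, in striated muscle 1 and 2 of 4, and in neurons 0 and 1 of 4. Of all protein-coding genes, 47.4% (control female) and 58.5% (VEDS male) had a promoter peak. Among the VEDS-only endothelial markers, the promoter peaks of *Tie1*, *Tek* and *Kdr* had ranks of 33265, 32669 and 28105, with 11, 11 and 13 fragments. These ranks lie beyond the 21176 places of the control female list, while *Erg* had rank 12074. The comparison of the long lists is between a control female and a VEDS male library, so that genotype, sex and depth cannot be told apart. A region without a peak in a list was not taken as closed.

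The DNA at a few regions shows which letters lie under the peaks. All sequences were read from GRCm38.p6 on the plus strand, and capitals mark a match to a consensus. The 4 consensus families that return most were searched on both strands. RBPJ matches were CGTGGGAA, CGTGAGAA, TGTGGGAA or TGTGAGAA, HES and HEY matches were CACGTG or CACGCG, AP-1 matches were TGACTCA or TGAGTCA, and TEAD matches were CATTCCA. The next sequences come from regions with a peak in both long lists. Those at the ligand genes are shown because they hold matches in the 300-bp windows around the summits. The others give the upstream RBPJ match of the *Hey2* promoter and examples of an intronic and an upstream region. The *Notch1* region is intronic by GENCODE and lies upstream of the RefSeq start of the gene.
*Jag1* distal, RBPJ and AP-1, chr2:137049525-137049628: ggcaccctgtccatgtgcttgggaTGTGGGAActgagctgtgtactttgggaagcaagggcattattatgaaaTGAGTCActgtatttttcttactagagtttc
*Jag1* distal, AP-1, chr2:137067881-137067935: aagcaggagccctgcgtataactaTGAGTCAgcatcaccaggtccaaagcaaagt
*Jag1* promoter, HES and HEY, chr2:137116662-137116793: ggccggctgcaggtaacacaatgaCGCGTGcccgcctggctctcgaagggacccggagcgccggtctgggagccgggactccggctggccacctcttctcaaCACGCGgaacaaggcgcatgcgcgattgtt
*Jag2* distal, AP-1 and HES and HEY, chr12:112952620-112952736: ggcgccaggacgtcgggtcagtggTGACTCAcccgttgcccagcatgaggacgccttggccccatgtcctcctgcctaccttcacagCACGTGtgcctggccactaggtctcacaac
*Hey2* promoter, RBPJ, chr10:30842959-30843014: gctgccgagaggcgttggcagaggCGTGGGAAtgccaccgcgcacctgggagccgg
*Notch1* intron, AP-1, chr2:26507737-26507791: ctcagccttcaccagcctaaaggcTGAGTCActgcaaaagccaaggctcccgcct
*Hes1* upstream, TEAD, chr16:30059632-30059686: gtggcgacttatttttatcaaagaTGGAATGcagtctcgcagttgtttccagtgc

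A pair of intronic regions at receptor genes had a peak in the VEDS male list only. They are shown because each holds an RBPJ match, in *Notch2* next to a CArG box, the sequence bound by SRF. A match on the minus strand appears here as its reverse complement.
*Notch2* intron, RBPJ and CArG, chr3:98042878-98042983: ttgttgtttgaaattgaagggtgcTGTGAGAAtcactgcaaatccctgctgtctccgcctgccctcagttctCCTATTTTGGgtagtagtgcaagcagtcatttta
*Notch3* intron, RBPJ, chr17:32162287-32162342: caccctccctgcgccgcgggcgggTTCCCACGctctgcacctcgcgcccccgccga

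Of the 79 regions, 37 had a peak in both long lists, 41 in the VEDS male list only and 1 in the control female list only. By role, 12 of 33 regions at the receptors, 11 of 18 at the ligands and 14 of 28 at the targets were in both. The VEDS male list held 2.05 times as many peaks as the control female list at these loci and 1.96 times as many in all. All 10 genes had at least 1 peak in each long list. The median number of peaks per gene was 3.50 in the control female list, against 2 over all 21938 protein-coding genes, and 7 in the VEDS male list, against 4. Per 100 kb of window, the medians were 2.72 against 1.41 and 5.46 against 2.59. *Heyl* was the densest in the VEDS male list, with 11 peaks or 9.46 per 100 kb, and 95.7% of coding genes had fewer. Of these 11, 5 lay within 3 kb of a TSS of a neighboring coding gene. *Jag1* was the densest in the control female list, with 6 peaks or 4.44 per 100 kb, and 88.3% of coding genes had fewer.

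**Figure D1:**
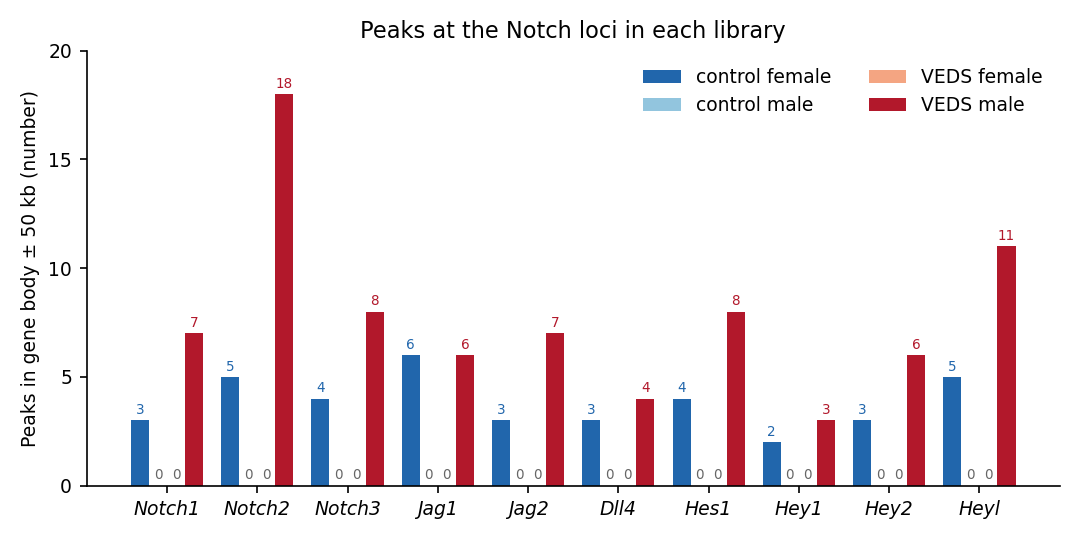
Number of peaks (y axis) in the gene body or within 50 kb of each of the 10 genes (x axis), with 1 bar per library. The short lists (control male and VEDS female) have 0 peaks at every gene, *Notch2* has 5 and 18 peaks in the long lists, and *Jag1* has 6 in each.

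By position, 18 regions lay within 3 kb of a transcription start site (TSS) of the Notch gene itself, 20 elsewhere in the gene body, 13 within 3 kb of a TSS of a neighboring coding gene and 28 farther outside. The summit was intergenic in 34 regions, in an intron in 32, in a UTR exon in 7, in a coding exon in 5 and in an exon of a noncoding transcript in 1. The shares in both long lists were 9 of 18 at the genes' own promoters, 8 of 20 in gene bodies, 7 of 13 at promoters of neighbors and 13 of 28 outside. Shares by position or role over all regions are not given here, so no position or role was taken to stand apart. Only *Notch2* had a long series of intragenic regions, 13 of its 18.

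**Figure D2:**
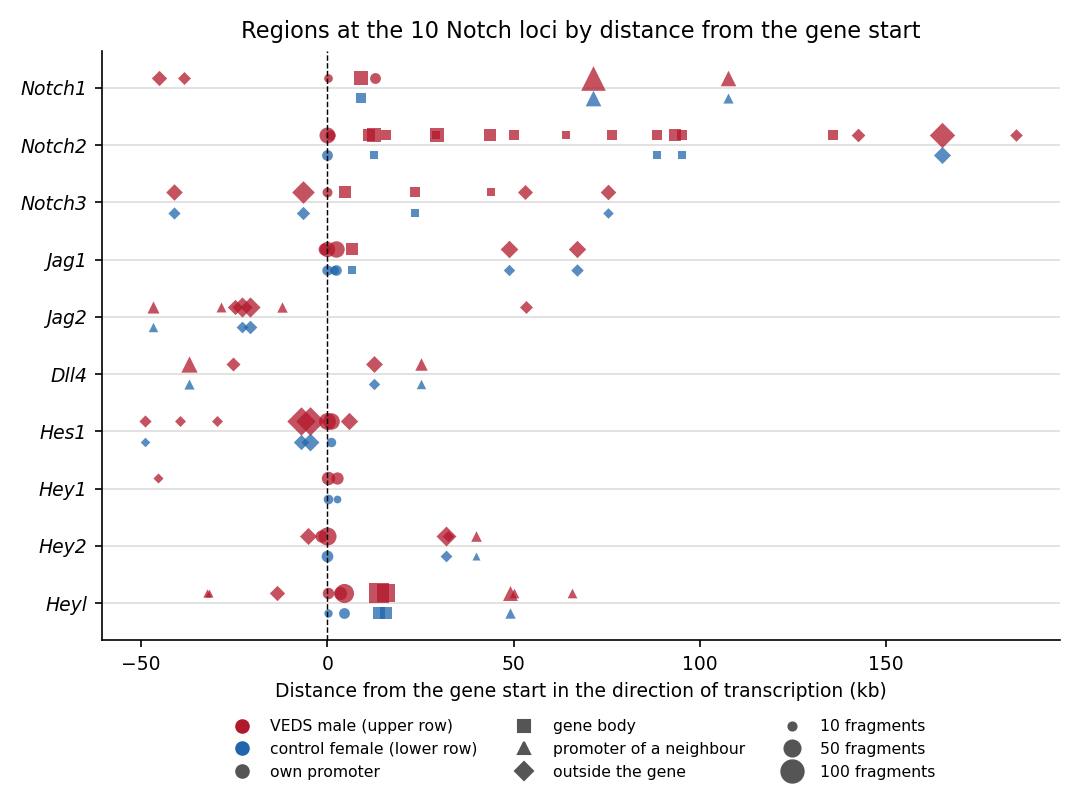
Distance of each region's summit from the start of its gene, in kb in the direction of transcription (x axis), for the 10 genes (y axis). Upper symbols are VEDS male peaks and lower symbols control female peaks, the symbol's shape gives its position relative to genes, and its area grows with the number of fragments at the summit. *Notch2* has 13 regions in its gene body, and the most fragments at a target gene are at *Heyl*, with 87 in the VEDS male library.

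A promoter peak, which lies at most 3 kb from a TSS, was present in the control female list for 6 of the 10 genes (*Notch2*, *Jag1*, *Hes1*, *Hey1*, *Hey2* and *Heyl*) and in the VEDS male list for 8 (these and *Notch1* and *Notch3*). Over all 21911 protein-coding genes, the shares were 47.4% and 58.5% in these lists, and 1.56% and 1.49% in the control male and VEDS female lists. *Jag2* and *Dll4* had a promoter peak in neither long list. No Notch gene had a promoter peak in a short list. The 4 target genes all had a promoter peak in both long lists.

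At the receptor genes, the promoter of *Notch2* had a peak in both long lists and those of *Notch1* and *Notch3* passed the threshold in the VEDS male list only. At *Notch2* (chr3:98013141-98013672), the summits held 21 fragments (control female) and 50 fragments (VEDS male), with deposited fold enrichments of 9.77 and 10.9 over the local background of each library. Its rank by −log10 q was 4715 of 21176 and 5956 of 41444. At *Notch3*, the main receptor of arterial VSMCs, the promoter peak (chr17:32166853-32167086) had 17 fragments in the VEDS male library and rank 29508. *Notch1* had VEDS male promoter peaks at both of its annotated starts, with 12 fragments next to the GENCODE gene start (chr2:26516439-26516568, rank 34369) and 21 at chr2:26503817-26504125 (rank 29226). The latter peak covers the RefSeq start of *Notch1* at 26503822. All 3 VEDS-only promoter peaks of *Notch1* and *Notch3* thus ranked beyond the 21176 places of the control female list. Of the 6 endothelial markers, 1 (control female) and 5 (VEDS male) had a promoter peak, with *Cdh5* in neither list, while the 6 VSMC markers had one in both. The VEDS-only promoter peaks of *Tie1*, *Tek* and *Kdr* also ranked beyond the 21176 places, and that of *Erg* within them. The part of cell composition or depth in these receptor peaks was not tested.

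Away from the receptor promoters, the windows of these genes held higher-ranked regions, some of them outside the gene or nearer to another gene. The highest-ranked region of the *Notch3* window lay 6.6 kb upstream of the gene start, between genes (chr17:32173257-32173637), with 15 control female fragments (rank 7411) and 50 VEDS male fragments (rank 4376). In the *Notch2* window it lay 165.0 kb downstream of the gene start and past the end of the gene (chr3:98178104-98178770), with 27 and 64 fragments and ranks of 1821 and 2363. That region lay 17444 bp from the nearest coding TSS, which is that of *Adam30*. The highest-ranked region near *Notch1* was the promoter of its neighbor *Sec16a* (chr2:26445180-26446368), with 48 and 124 fragments and ranks of 538 and 336. Within the GENCODE body of *Notch1*, the best region of both long lists was the intron region with the AP-1 match printed above. It lay 9.0 kb from the GENCODE gene start (chr2:26507446-26508014), with 16 and 34 fragments and ranks of 8378 and 13772. The same region lies upstream of the RefSeq start at 26503822, so its place inside the gene rests on the annotation. These 4 regions had a peak in both long lists.

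In the body of *Notch2*, 13 regions stood within introns or, in 1 case, a UTR exon. All ranked below the *Notch2* promoter, with best ranks of 14022 (control female) and 12100 (VEDS male). Of the 13, 3 were also in the control female list. Of these 3, 1 holds an AP-1 match (chr3:98101698-98102026, 11 and 21 fragments) and the other two hold TEAD matches (12 and 32 fragments 12.6 kb into the gene, and 8 and 19 fragments 95.1 kb into it). The VEDS-only region with the RBPJ and CArG matches printed above (chr3:98042920-98043175) had 34 fragments and rank 12100, the highest rank of the VEDS-only regions in this gene body. Its RBPJ match lies before the start of the called peak and 112 bp from the summit. In *Notch3*, the VEDS-only intron region printed above (chr17:32162195-32162326) had 26 fragments and rank 18566.

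At the ligand genes, *Jag1* stood apart from *Jag2* and *Dll4* by its promoter peaks. *Jag1* encodes the Jagged ligand that VSMCs receive from endothelium and from each other. Its promoter region (chr2:137116649-137117183) had 19 control female and 46 VEDS male fragments, with fold enrichments of 5.55 and 5.78 and ranks of 11492 and 13055. A region 2.3 kb into the gene (chr2:137114246-137114538), in an intron, had 20 and 53 fragments and ranks of 11861 and 11439. Between them lay the only region at a Notch locus with a control female and no VEDS male peak (chr2:137114798-137115003). It had 13 fragments, a fold enrichment of 3.57 and rank 20000 of 21176, near the end of the list.

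The highest-ranked region of *Jag1* in both long lists was distal. It lay 67.1 kb from the gene start, past the end of the gene, in an intron of the neighbor *Slx4ip* (chr2:137049376-137049853). Its control female summit held 13 fragments (rank 7487, fold 9.11) and its VEDS male summit 28 (rank 10074, fold 12.3). Its RBPJ match was the closest to a summit at any Notch locus, with its center 3 bp from the control female and 2 bp from the VEDS male summit. The AP-1 match of the same region was 51 and 46 bp away. A further region in a coding exon of *Slx4ip* (chr2:137067689-137068040), 48.7 kb from the start of *Jag1*, had 10 and 29 fragments and an AP-1 match 27 and 6 bp from the summits.

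*Jag2* and *Dll4* had regions in both long lists, but none in the gene or within 3 kb of its starts. The nearest *Dll4* region lay 12.4 kb downstream of the gene start (chr2:119337994-119338242), with 10 and 26 fragments and ranks of 14261 and 13745. The strongest region in its window was the promoter of *Vps18*, a vacuolar sorting gene (chr2:119288310-119288950), with 18 and 52 fragments. For *Jag2*, the strongest control female region was the promoter of *Btbd6* (chr12:112976423-112977139), with 15 and 27 fragments and ranks of 9065 and 19018. The strongest VEDS male region lay 20.8 kb upstream of *Jag2* (chr12:112950453-112950702), with 16 and 39 fragments and ranks of 10764 and 15170. The region with the AP-1 and HES and HEY matches printed above, 22.8 kb upstream (chr12:112952384-112952754), had 11 and 39 fragments.

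After the promoter of *Sec16a*, the regions with the most VEDS male fragments lay at the target genes. At *Heyl*, a HEY-family repressor gene expressed in arterial smooth muscle, the highest-ranked region in both long lists lay in a UTR exon of the gene, 13.7 kb from its start (chr4:123246983-123247469), with 30 control female and 87 VEDS male fragments and ranks of 3746 and 2873. Another UTR exon region 15.7 kb from the start (chr4:123249074-123249623) had 28 and 66 fragments, and an intron region 4.4 kb from the start (chr4:123237525-123238171) had 21 and 73. The latter lies 1586 bp from another *Heyl* TSS and is thus a promoter peak, the highest-ranked of this gene in both long lists (7679 and 4721). The region next to the gene start (chr4:123233568-123233829) was weaker, with 11 and 24 fragments, fold enrichments of 3.88 and 3.06 and ranks of 19921 and 35459.

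*Hes1*, the classical Notch target, had its highest-ranked regions upstream. In the control female list the highest was 4.8 kb upstream of the gene start (chr16:30059283-30059739), with 30 and 82 fragments and ranks of 3876 and 4321. In the VEDS male list it was 7.2 kb upstream (chr16:30057024-30057535), with 21 and 81 fragments and ranks of 7804 and 2536. There were 2 promoter regions. The region that covers the RefSeq start (chr16:30065130-30065416) had 15 and 54 fragments and ranks of 15847 and 11186. The region at the GENCODE gene start (chr16:30064044-30064420) had 56 fragments in the VEDS male library (rank 12867) and no control female peak.

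*Hey2* had the strongest promoter among the 10 genes by rank in both long lists. Its promoter region (chr10:30842337-30843385) had 25 and 65 fragments, fold enrichments of 8.78 and 10.8, and ranks of 4501 and 3901. A distal region 31.7 kb downstream of its start (chr10:30810828-30811193) had 11 and 38 fragments. *Hey1* had a promoter region in a UTR exon (chr3:8666920-8667648) with 16 and 34 fragments and ranks of 9341 and 14806, and a further promoter-proximal region in a coding exon (chr3:8664664-8664820) with 9 and 28. The last of its 3 regions, 45.6 kb upstream, was in the VEDS male list only and had 7 fragments.

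The overlap of the long lists at the Notch loci was near that of all peaks. Of the 38 control female peaks, 37 overlapped a VEDS male peak by at least 1 bp (97.4%, 95% Wilson interval 86.5% to 99.5%), against 95% of the whole list. Of the 78 VEDS male peaks, 37 overlapped a control female peak (47.4%, interval 36.7% to 58.4%), against 47.6%. The intervals cover counting error only. With the VEDS male list cut to the length of the control female list, 30 of 38 control female peaks (78.9%) and 30 of 39 VEDS male peaks (76.9%) overlapped, against 79.6% and 77.6% of all peaks. Of the 41 VEDS-only peaks, 9 ranked within the length of the control female list (22.0%, interval 12% to 36.7%), against 21.9% of all VEDS-only peaks. These shares of the Notch loci do not stand apart from the background.

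The VEDS-only peaks had fewer fragments than the shared ones. At the Notch loci, shared VEDS male peaks had a median of 38 fragments at the summit (12 to 124) and VEDS-only peaks 17 (7 to 56), against 37 and 15 in the whole list. In the 37 shared regions, the ratio of VEDS male to control female fragments had a median of 2.57 and ran from 1.80 to 3.86. Over all 19616 such regions the median was 2.45, with the 5th percentile at 1.5 and the 95th at 3.85. By role, the medians were 2.47 at the receptors, 2.44 at the ligands and 2.67 at the targets. A single Notch region lay above the 95th percentile and none below the 5th. This was the region 7.2 kb upstream of *Hes1*, with a ratio of 3.86 (exact 95% interval 2.36 to 6.56), whose interval includes that median. The *Hes1* promoter region had a ratio of 3.6 (interval 2 to 6.87) and the intron region of *Heyl* 4.4 kb from the start 3.48 (interval 2.12 to 5.95), and these also include 2.45. The exact intervals of all 37 ratios hold the median of all regions, which was not scaled for library totals.

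**Figure D3:**
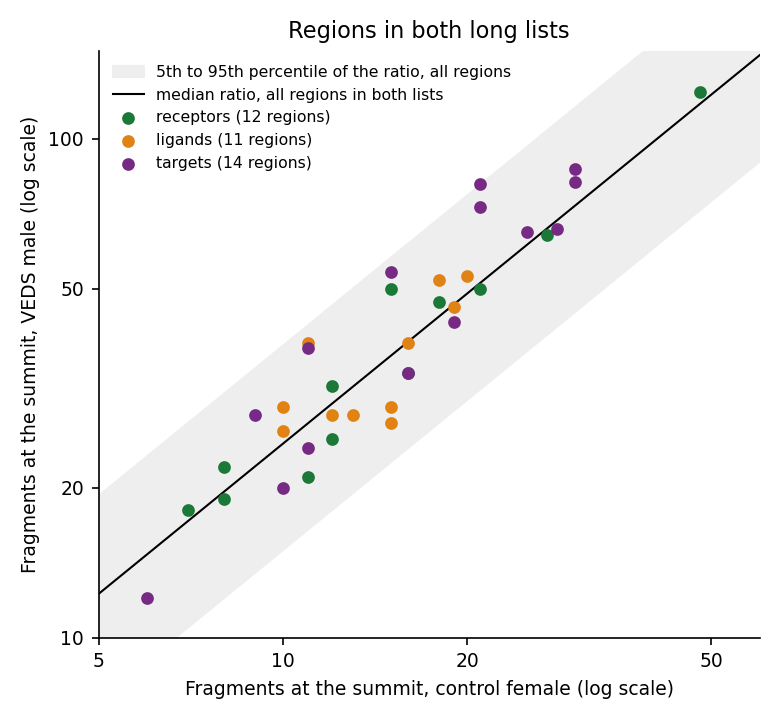
Fragments at the summit in the control female library (x axis, log scale) and the VEDS male library (y axis, log scale) for the 37 regions with a peak in both long lists, colored by the role of the gene. The line is the median ratio of all such regions in the lists (2.45) and the gray band runs from the 5th to the 95th percentile (1.5 to 3.85). The points lie within the band except 1 region at *Hes1*, with 21 and 81 fragments.

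The position of the summits was similar in the long lists. In the 37 shared regions, the summits lay a median of 29 bp apart, against 35 bp over all 19651 shared regions, and 29 of the 37 (78.4%) were within 50 bp, against 63.6%. The Spearman rho of the ranks was 0.89 over the 37 regions and 0.81 over all. These are descriptions across regions of the same pair of libraries, which share their mapping and base composition.

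RBPJ matches were present in a higher share of the 300-bp summit windows at the Notch loci than in the lists as a whole. The share was 7 of 38 in the control female list (18.4%, interval 9.22% to 33.4%), against 4.50%, and 14 of 78 in the VEDS male list (17.9%, interval 11% to 27.9%), against 4.71%. Both intervals lie above the background share. The 4 target genes are in the set because the Notch complex acts on them through RBPJ, so matches there follow in part from this choice. By role, 7 of 28 regions at the targets, 6 of 33 at the receptors and 2 of 18 at the ligands held a match. Neighboring peaks of a locus are not independent, and 37 of the 38 control female peaks overlap a VEDS male peak. In windows at the genes' own promoters, the shares were 4 of 10 (40.0%) and 5 of 17 (29.4%, interval 13.3% to 53.1%), against 4.29% and 4.11% of all promoter peaks. In the remaining windows they were 3 of 28 (10.7%, interval 3.71% to 27.2%) and 9 of 61 (14.8%, interval 7.96% to 25.7%). The share over all windows away from promoters is not given here. Of these intervals, the control female one includes the 4.50% of its whole list, and the VEDS male one lies above the 4.71% of its own.

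Matches in either long list were spread over the pathway, while those in both were mainly at the target genes. In all, 15 regions at 9 of the 10 genes held an RBPJ match, and *Dll4* was the gene without one. The regions were 6 at the receptors, 2 at the ligands and 7 at the targets. The *Notch2* matches, the match 6.6 kb upstream of *Notch3* and that 32.4 kb downstream of the *Hey2* start lay outside the called peaks. The *Jag2* region with a match lay closer to a TSS of *Gpr132* (8191 bp) than to one of *Jag2* (33693 bp). In 6 regions the match lay in the windows of both long lists, namely at the promoters of *Hes1*, *Hey1*, *Hey2* and *Heyl*, at the UTR exon region of *Heyl* 13.7 kb from its start, and at the distal *Jag1* region. Thus 5 of these 6 were at targets, 1 at a ligand and 0 at a receptor. In the *Hey2* promoter there were 2 matches, at 30842781 to 30842788 and, as printed above, at 30842983 to 30842990. The *Hey1* match (8667015 to 8667022 on chromosome 3) lay 114 and 85 bp from the summits, the *Heyl* promoter match (123233684 to 123233691 on chromosome 4) 63 and 111 bp, and the match in the *Heyl* UTR exon (123247193 to 123247200) 37 and 84 bp.

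A paired RBPJ match, written TGNGAA and TTCNCA with 15 to 17 bases between them, was found in 1 Notch region, the *Hes1* promoter, and in the windows of both long lists. It spans 30065260 to 30065287 on chromosome 16 with 16 bases between its parts, ends 70 bp upstream of the RefSeq start of *Hes1*, and its center lay 21 bp from the control female and 58 bp from the VEDS male summit. The RBPJ match of this promoter, at 30065258 to 30065265, overlaps it. A paired match was in 0.137% of the windows of the whole control female list and in 0.157% of those of the VEDS male list. The same *Hes1* region also held 2 HES and HEY matches, at 30065224 to 30065229 and 30065297 to 30065302.

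The other families were closer to their background. HES and HEY matches were in 11 of 38 control female windows (28.9%, interval 17% to 44.8%), against 17.6%, and in 15 of 78 VEDS male windows (19.2%, interval 12% to 29.3%), against 13.9%. They lay at the promoters of *Hes1*, *Hey1*, *Jag1* and *Notch2* and in 11 regions of both long lists in all. AP-1 matches were in 7 of 38 control female windows (18.4%, interval 9.22% to 33.4%), against 11.6%, and in 8 of 78 VEDS male windows (10.3%, interval 5.29% to 19.0%), against 11.6%. None of the windows at the genes' own promoters held an AP-1 match (0 of 10, upper limit 27.8%, and 0 of 17, upper limit 18.4%), against 5.35% and 6% of all promoter peaks, which these limits include. Of the 8 VEDS male peaks with an AP-1 match, 7 overlapped a control female peak, against 47.8% of all VEDS male peaks with one. TEAD matches were in 3 of 38 (7.89%) and 6 of 78 windows (7.69%), against 6.08% and 6.27%.

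MEF2 and CArG matches, bound by factors of the smooth muscle contractile program, were few. The MEF2 consensus was in 0 of 38 control female windows (upper limit 9.18%), against 5.55%, and in 3 of 78 VEDS male windows (3.85%, interval 1.32% to 10.7%), against 5.79%. The 3 regions were at *Notch1*, *Hey2* and *Heyl*. CArG boxes were in 0 of 38 control female windows (upper limit 9.18%), against 3.02%, and in 2 of 78 VEDS male windows (2.56%, interval 0.706% to 8.88%), against 3.09%, both in introns of *Notch2*. These intervals hold the background shares.

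**Figure D4:**
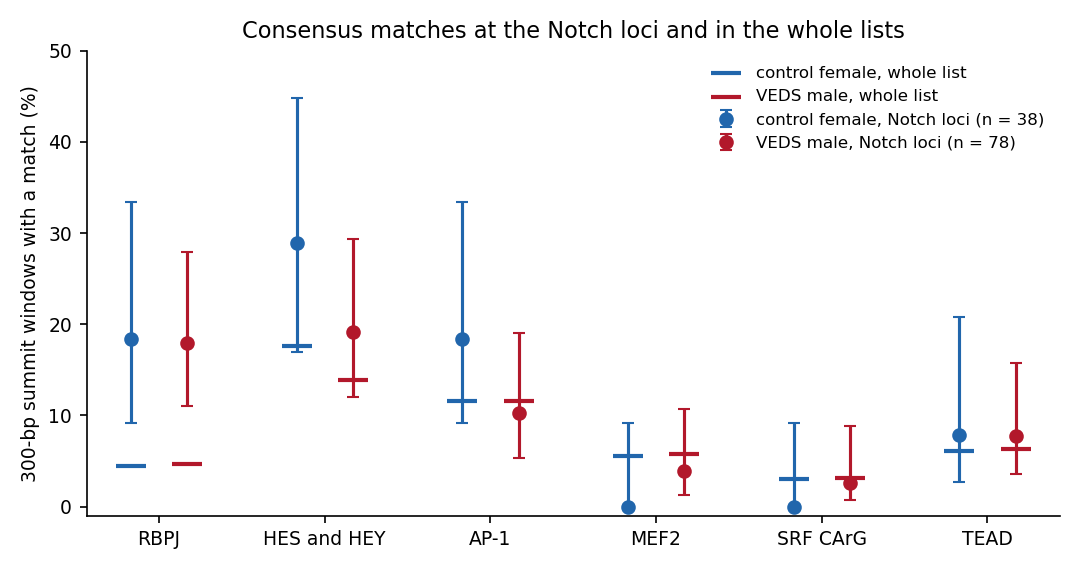
Share of 300-bp summit windows with a consensus match (y axis, percent) for 6 families (x axis). Points are the windows at the Notch loci (38 control female and 78 VEDS male) with 95% Wilson intervals, and dashes are the whole lists. The RBPJ intervals, from 9.22% and from 11%, lie above the dashes at 4.50% and 4.71%, and the intervals of the other families include theirs.

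In the RefSeq promoter table (GRCm38.p6), which gives 300 bases around each start, 7 of the 10 genes were matched, and *Hes1*, *Hey1* and *Heyl* were not. RBPJ matches were in 4.30% of all 32851 promoters and, of the 7 genes, in *Hey2* only. HES and HEY matches were in 15.4% of all promoters and in 4 of the 7, *Notch2*, *Jag1*, *Jag2* and *Dll4*. Paired RBPJ matches were in 0.152% of all promoters and in 0 of the 7.

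Most of the other genes of the pathway had a promoter peak in the long lists. Of 42 further genes, 31 had a promoter peak in the control female list, 35 in the VEDS male list, 29 in both and 0 in a short list, beside the 47.4% and 58.5% of all coding genes given above. They include *Rbpj*, the DNA-binding protein of the pathway, the coactivators *Maml1* to *Maml3*, the sheddases *Adam10* and *Adam17* and the γ-secretase genes *Psen2*, *Ncstn*, *Aph1a* and *Psenen*. All of these had a promoter peak in both long lists. *Rbpj* had its best promoter peak at rank 3696 in the control female list and at rank 5796 in the VEDS male list. *Numb*, an inhibitor of Notch signaling, had the highest-ranked promoter peak of the list, at ranks 318 and 84. *Notch4*, an endothelial receptor, had promoter peaks at ranks 14298 and 16138.

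Promoter peaks were in neither long list for *Dll3*, *Dlk1*, *Poglut1*, *Mfng* and *Rfng*, which are a Delta-like and a noncanonical ligand, a glucosyltransferase of the receptors and 2 Fringe glycosyltransferases. Chosen after their values were seen, 6 genes had a promoter peak in the VEDS male list only, the ligands *Dll1* and *Dlk2*, the convertase *Furin*, the Fringe gene *Lfng* and the ubiquitin ligases *Itch* and *Dtx1*. Their best ranks ran from 4331 for *Itch* to 33210 for *Lfng*. *Hes5* and *Hes7*, also chosen after their values were seen, had a promoter peak in the control female list only. The *Hes5* peak (chr4:154963959-154964166, 19 fragments) overlapped a VEDS male peak of 31 fragments, and the difference rests on the 3-kb limit, since the peaks lay 2988 and 3027 bp from the TSS. The *Hes7* peak (chr11:69118839-69118963) had 10 fragments and rank 20909, and the nearest VEDS male peak was 4807 bp away.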

How the data were processed

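The 4 deposited narrowPeak lists, 1 per library, were used. Reads had been mapped by the authors to mm10 (GRCm38), and MACS2 had been run in narrow-peak mode after removal of duplicates per barcode and correction of Tn5 cut sites, without blacklisted regions. The aligner is not given in the sources used here. Each deposited peak has a fold enrichment, which is the authors' ratio of summit fragments to local background, and the authors' −log10 p and −log10 q. The deposited score repeats the −log10 q and was not used. Peaks were ranked by −log10 q within a list only, and the lowest −log10 q was 1.303 to 1.321 in the 4 lists.

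Summit fragments were worked back from the deposited values, by taking the integer that fits the fold (pseudocount 1) and, with a Poisson model, the −log10 p, within a relative tolerance of 0.2%. The step was tested on data simulated with the same formula, which checks the inversion only and not whether the deposited values follow the formula. In the deposited lists it gave a number for 99.2% to 99.9% of peaks. The median number of summit fragments was 6 and 7 in the short lists, and since library totals were not analysed here, the part of depth in the length of the lists was not tested.

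Peaks were placed with GENCODE vM21. A peak belonged to a locus if it overlapped the gene body or the 50 kb on either side, and to a promoter if it lay within 3 kb of a TSS of a protein-coding gene. Consensus sequences were searched in 300-bp windows around summits on the chromosomes 1 to 19, X and Y. Shares have 95% Wilson intervals and ratios of 2 counts exact binomial intervals, which cover counting error only. The members and gene lists were chosen with earlier results of these data known. Named were the 10 genes with their promoter peaks, the region of best rank of each gene in each long list, regions with a paired RBPJ match or with an RBPJ match in both long lists, and pathway genes with a promoter peak in neither long list. A few other regions were named as examples after their values were seen. No test between genotypes was made, since the exact permutation test of 2 libraries against 2 cannot pass a usual threshold and the control male and VEDS female lists hold 0 peaks at these loci. An item of the pathway list is not reported by name here. Alternatives were −log10 q thresholds, equal list lengths, a limit on masked bases, other flanks, overlaps, promoter distances, windows and an RBPJ consensus, and leaving out each library. Computations ran in Python 3.11.15 (numpy 2.4.6, pandas 2.3.3, scipy 1.17.1, matplotlib 3.10.9).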

Additional observations from a re-analysis of the deposited data

How the results depend on the processing

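Of 116 values recomputed under 18 alternative settings, 84 stayed within 1.5 times the reported count or within its Wilson interval, and 32 moved. Some of the 84 were fixed in advance. The control male and VEDS female lists hold 0 of the peaks counted, so leaving either out could not change a value. A count of peaks of a genotype also cannot change when a library of the other is left out. With a −log10 q of at least 5, all control female peaks (100%) overlapped a VEDS male peak. With at least 10, that share was also 100%, and 39 regions remained, 16 with a control and 39 with a VEDS peak, and 3 Notch genes had a control promoter peak. With every list cut to 504 peaks, 1 region was left, with 0 control peaks and 1 VEDS peak. Its overlap and its RBPJ share were 0%. This region was the promoter of *Sec16a*, a neighbor of *Notch1*, at rank 336 in the VEDS male list. Its control female peak had rank 538 and so fell past the cut. No Notch gene had a promoter peak in either genotype (0 and 0). Of the other pathway genes, 2 had a control and 1 a VEDS promoter peak. That is the opposite order to the 31 and 35 of the full lists, and it rests on these few genes. With long lists of equal length there were 47 regions, 39 of them with a VEDS peak, and the overlaps were 78.9% of control female and 76.9% of VEDS male peaks. In that setting, 6 Notch genes had a control and 6 a VEDS promoter peak. Of the other pathway genes, 31 had a control and 32 a VEDS promoter peak. Within the gene body and 3 kb there were 40 regions (19 control, 39 VEDS), and with the Notch gene as the nearest coding TSS 47 (23 control, 46 VEDS).

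Leaving out each library in turn gave 38 to 79 regions, 0 to 38 with a control peak and 0 to 78 with a VEDS peak. Notch genes with a promoter peak ranged from 0 to 6 in control and from 0 to 8 in VEDS, and other pathway genes from 0 to 31 and from 0 to 35. The lowest values came without the control female library (0 control regions) or without the VEDS male library (38 regions, 0 VEDS), so each genotype rests on 1 library at these loci. No paired analysis was possible because, although sex pairs the libraries across genotypes, each pair includes a list with 0 peaks at these loci (VEDS female or control male), and no result comes from a test.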
